A study of Mus musculus with 3 samples.

Results

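MAP kinase phosphatases and the Sprouty and Spred proteins are feedback inhibitors of MAP kinase signalling, and the 10 genes described here were Dusp1, Dusp2, Dusp4, Dusp5, Dusp6, Dusp7, Dusp10, Spry1, Spred1 and Spred2. They were taken by name, as all probe sets whose only gene symbol was one of these, which gave 24 of the 45101 probe sets on the array. They account for 10 of the 18194 genes with a named probe set. The genes were chosen by name, but with their signals on these same 3 arrays known from earlier results, Dusp4 among the highest ratios of wild-type ATP11A over parental cells, so all values below are descriptions. Expression was measured in WR19L, a mouse T-lymphoma cell line of BALB/c origin, with 1 Affymetrix array per group. Both transgenic lines were built on DKO cells, in which WR19L had been made deficient in flippase activity. One line stably expressed ATP11A with the mutation Q84E, the other stably expressed wild-type human ATP11A, and the third array held parental WR19L cells, with neither the knockout nor a transgene. ATP11A is a P4-ATPase of the plasma membrane, a flippase that carries phospholipids from its outer to its inner face. All cells were untreated and grown in RPMI1640 with fetal calf serum. The sources used here do not name the genes that DKO cells lack or the promoter of the transgene, nor do they say whether a line was 1 clone. DKO cells without a transgene were not analysed here, so in a ratio over parental cells the knockout, the transgene and the derivation of the line cannot be told apart. In the ratio of Q84E over wild-type ATP11A, with 1 array of each line, the mutation cannot be told apart from the line, its transgene level or its culture.

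Signals through Ras, Raf and MEK activate the kinases ERK1 and ERK2, and parallel cascades activate the kinases JNK and p38. ERK activity induces many of its own inhibitors. The dual-specificity phosphatases (DUSP) remove phosphate from both the threonine and the tyrosine of the activation loop of a MAP kinase, while Sprouty and Spred proteins act further upstream, on the activation of Ras and Raf. In T cells this feedback is engaged downstream of the T cell receptor and limits how long ERK stays active.

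The arrays gave 1 signal per probe set, on a linear intensity scale. The trimmed mean was 500.0 on each array, the 75th percentile was 392 for Q84E, 373 for wild-type ATP11A and 369 for parental cells, and the median, used here as a floor for weak signals, was 55.5, 50.5 and 50.3 in the same order of arrays. With 1 array per group there was no replicate and hence no test, SD or p-value, so precision is limited by how few arrays there were. The size of the measurement error was taken from pairs of probe sets of the same gene. As an SD of the log2 ratio of 1 probe set it was 0.31 to 0.35 for levels between the 50th and 75th percentile, 0.17 to 0.19 between the 75th and 90th, and 0.096 to 0.11 above the 90th. It does not cover differences between cultures. The brighter probe set of Atp11a gave 244 in Q84E, 253 in wild-type ATP11A and 478 in parental cells, and the dimmer one was under the floor in both DKO lines, at 31.7 in Q84E and 16.3 in wild-type ATP11A, against 131 in parental cells. Whether either lies in an edited part of the gene is not given, so they do not check the labels. Of 10 T cell markers 8 had a named probe set, and 6 of these lay above the 75th percentile on all 3 arrays, while Cd3e and Cd5 lay under the floor on all 3. The summed signal of the 8 was 34064 in Q84E, 30267 in wild-type ATP11A and 35060 in parental cells. None of the B cell, myeloid, erythroid or fibroblast markers with a named probe set reached the 75th percentile on any array.

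The highest ratios among the 10 genes belonged to Dusp4, which was higher in Q84E than in wild-type ATP11A cells and higher in these than in parental cells. Dusp1, Dusp6, Dusp10 and Spry1 were 1.60-fold to 1.78-fold higher in Q84E than in wild-type ATP11A cells, and Dusp7 was 1.47-fold lower. Dusp2 was 1.20-fold lower, and Dusp5, Spred1 and Spred2 lay within 1.13-fold of wild-type ATP11A cells on their brightest probe sets. The array of Q84E cells was the highest of the 3 for 8 of the 10 genes, all but Dusp2 and Dusp7, for 7 with quantile normalization, which took out Spred1, and for 5 with a common median, which were Dusp1, Dusp4, Dusp6, Dusp10 and Spry1. Of the 11596 genes compared, 42.9% were highest on that array in the deposited scaling. Such shares of all genes were not computed under the other scalings. The wild-type ATP11A array was the lowest for 4 of the 10, Dusp6, Dusp10, Spred1 and Spred2, and for 30.0% of all genes, but under both of these other scalings Spred1 was not lowest there.

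**Figure D1:**
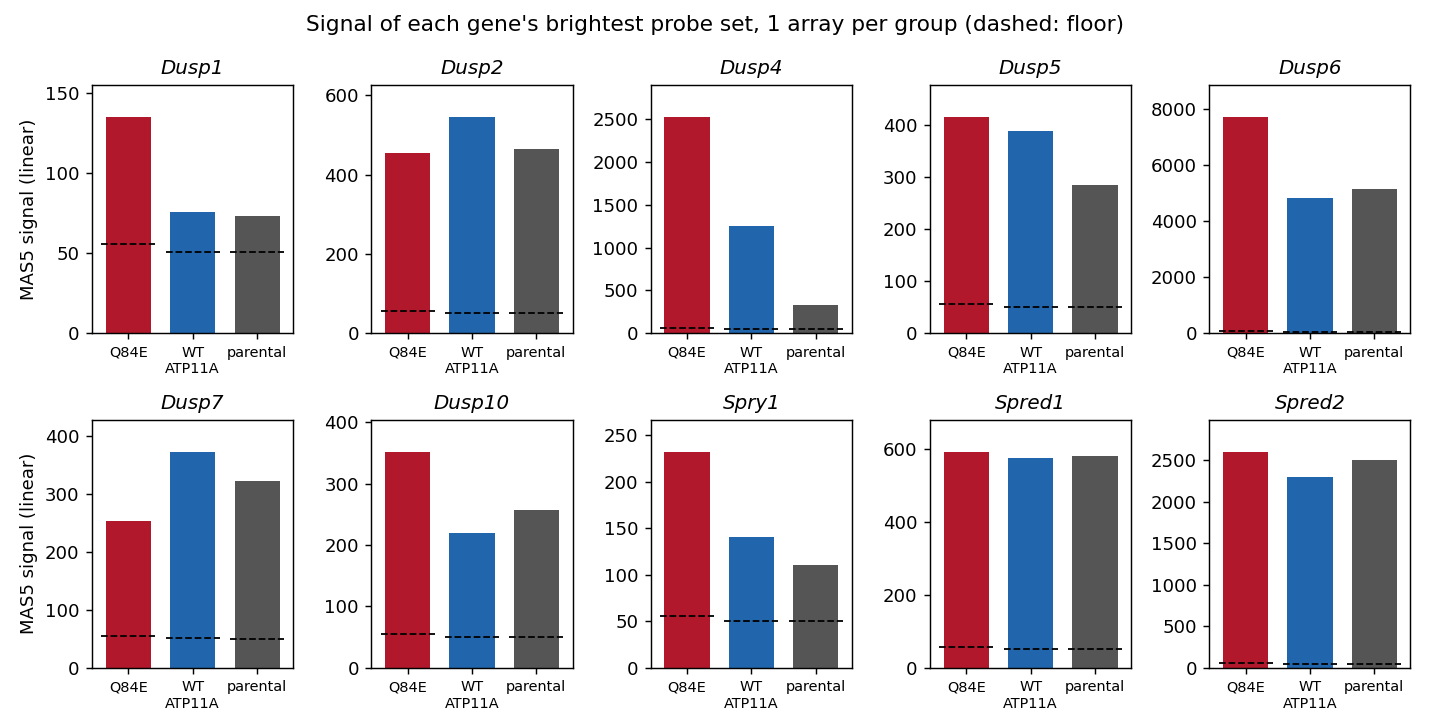
Signal of the brightest probe set of each of the 10 genes (vertical axis, linear MAS5 signal, a separate scale for each gene) on the Q84E, wild-type ATP11A and parental arrays; each bar is 1 array and the dashed lines are the floors of the arrays. Dusp4 steps down over the 3 arrays at 2524, 1248 and 325, and Dusp6 stands at 7689 in Q84E cells against 4807 and 5125 in the others.

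A promoter window of 250 bases before the start of the gene was matched by symbol in RefSeq (assembly GRCm38.p6) for 9 of the 10 genes, all but Dusp4. The windows were searched on both strands for the cyclic AMP response element TGACGTCA, its core TGACG, the AP-1 site TGANTCA, the ETS letters CCGGAA, the TATA letters TATAAA and the CArG box of serum response factor. Shorter forms of the ETS letters were not searched. The core TGACG lies within the full element on both strands. These are motifs of factors that lie downstream of MAP kinases and other signals, apart from the TATA letters. Of 32851 windows of the same length, 1.55% held the full cyclic AMP response element, 17.8% its core, 6.75% the AP-1 site, 12.0% the ETS letters, 12.4% the TATA letters and 1.47% a CArG box. The Dusp1 window held 1 full element, 136 to 143 bases before the start, and a further core. The Dusp5 window held 2 CArG boxes side by side, 63 to 82 bases before the start, and 1 core. The Spred2 window held 1 core, and the windows of Dusp2, Dusp6, Dusp7, Dusp10, Spry1 and Spred1 held none of the letters searched. A match is a run of letters and not a shown binding site, and a window without one says only that these letters are not in it. The windows of Dusp1 and Dusp5 are printed because they hold the full cyclic AMP response element and the CArG boxes, and those of Dusp6 and Spry1 because both genes were higher in Q84E than in wild-type ATP11A cells. Each reads 5′ to 3′ on the strand of its gene, with capitals for the motif letters found.
Dusp1 chr17:26508473-26508722 (- strand): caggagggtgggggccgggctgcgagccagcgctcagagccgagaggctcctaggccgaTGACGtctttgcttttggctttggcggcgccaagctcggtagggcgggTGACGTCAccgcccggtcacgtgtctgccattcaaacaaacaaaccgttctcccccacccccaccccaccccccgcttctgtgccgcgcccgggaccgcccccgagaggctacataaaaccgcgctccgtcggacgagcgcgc
Dusp5 chr19:53528895-53529144 (+ strand): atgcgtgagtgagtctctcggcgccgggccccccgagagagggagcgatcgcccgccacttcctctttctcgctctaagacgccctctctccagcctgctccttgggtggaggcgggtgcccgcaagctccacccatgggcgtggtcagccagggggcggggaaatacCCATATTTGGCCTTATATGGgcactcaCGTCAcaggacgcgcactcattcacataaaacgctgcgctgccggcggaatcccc
Dusp6 chr10:99262981-99263230 (+ strand): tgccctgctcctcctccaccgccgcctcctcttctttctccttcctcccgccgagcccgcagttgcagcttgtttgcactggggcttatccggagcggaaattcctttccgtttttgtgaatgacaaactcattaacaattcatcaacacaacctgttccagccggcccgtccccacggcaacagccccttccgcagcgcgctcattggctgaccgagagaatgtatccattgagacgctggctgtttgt
Spry1 chr3:37639697-37639946 (+ strand): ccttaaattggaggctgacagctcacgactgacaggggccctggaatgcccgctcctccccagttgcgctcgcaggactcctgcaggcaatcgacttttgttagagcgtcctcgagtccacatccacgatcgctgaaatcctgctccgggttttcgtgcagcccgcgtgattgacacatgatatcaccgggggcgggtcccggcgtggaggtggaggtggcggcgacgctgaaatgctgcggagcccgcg

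Dusp1, Dusp2, Dusp4 and Dusp5 encode the nuclear phosphatases that are induced by signals. Dusp4, which acts on ERK and also on JNK and p38, had a signal of 2524 in Q84E, 1248 in wild-type ATP11A and 325 in parental cells, on its only probe set. The 3 arrays were thus in a clear order, with each step larger than the probe set error. The log2 ratio was 1.02 for Q84E over wild-type ATP11A with an error of 0.17, 1.94 for wild-type ATP11A over parental with an error of 0.18 and 2.96 for Q84E over parental with an error of 0.19. In fold these are 2.02, 3.84 and 7.77. Among all genes compared, Dusp4 had the 111th highest ratio of Q84E over wild-type ATP11A, the 9th highest of wild-type ATP11A over parental and the 5th highest of Q84E over parental cells. Its ratio of Q84E over wild-type ATP11A stood just past the 2-fold limit, and dividing each array by its own median lowered it to 0.88 on the log2 scale, and a pseudocount of 50 lowered it to 0.99.

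Dusp1, an early response phosphatase that prefers p38 and JNK, had a signal of 135 in Q84E, 75.7 in wild-type ATP11A and 73.0 in parental cells. Both lines without the mutant thus had nearly the same level, not far above the floor, and the Q84E array stood apart. The log2 ratio was 0.83 over wild-type ATP11A and 0.88 over parental cells, with errors of 0.31 and 0.35. Dusp5, a nuclear phosphatase that acts on ERK alone, had another order, with 415 in Q84E, 389 in wild-type ATP11A and 285 in parental cells. Here both DKO lines lay close together, at a log2 ratio of 0.092, and above parental cells, at 0.54 for Q84E and 0.45 for wild-type ATP11A, each less than 2 errors of 0.35 away from 0. Dusp2, an ERK and p38 phosphatase found mostly in blood cells, had 453 in Q84E, 544 in wild-type ATP11A and 463 in parental cells. It was highest on the wild-type ATP11A array, by a log2 ratio of 0.23 over parental cells, and the log2 ratio of Q84E over wild-type ATP11A was -0.26. Neither exceeded 2 errors of 0.17 to 0.18 in the deposited scaling, but with a common median the ratio of Q84E over wild-type ATP11A was -0.40, which did.

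Dusp6 and Dusp7 encode cytoplasmic phosphatases that act on ERK. Dusp6, a widely used readout of ERK activity, was among the brightest probe sets of the array, with 7689 in Q84E, 4807 in wild-type ATP11A and 5125 in parental cells. The Q84E array was apart, since wild-type ATP11A and parental cells differed by a log2 ratio of -0.092, less than the error of 0.096. The log2 ratio of Q84E was 0.68 over wild-type ATP11A and 0.59 over parental cells, at errors of 0.097 and 0.11. Dusp7 went the other way on all 3 of its probe sets. The brightest gave 252 in Q84E, 372 in wild-type ATP11A and 322 in parental cells, the next 243 in Q84E, 313 in wild-type ATP11A and 297 in parental cells, and the dimmest 185 in Q84E, 278 in wild-type ATP11A and 253 in parental cells. The Q84E array was the lowest on each of them. Their log2 ratios of Q84E over wild-type ATP11A were -0.56, -0.36 and -0.59, and of Q84E over parental cells -0.35, -0.29 and -0.45. All 3 probe sets are of the kinds that match several transcripts or related sequences, and 2 were designed from the same sequence record, so they are not independent measurements of Dusp7.

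Dusp10 encodes a phosphatase of JNK and p38 that leaves ERK largely untouched. Its brighter probe set gave 352 in Q84E, 220.3 in wild-type ATP11A and 257 in parental cells. Q84E cells were again highest, and the log2 ratio was 0.68 over wild-type ATP11A and 0.45 over parental cells, at errors of 0.31 and 0.35. The other probe set of Dusp10 lay under the floor on all 3 arrays, at 43.8, 20.1 and 4.61 for Q84E, wild-type ATP11A and parental cells, and gives no ratio.

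**Figure D2:**
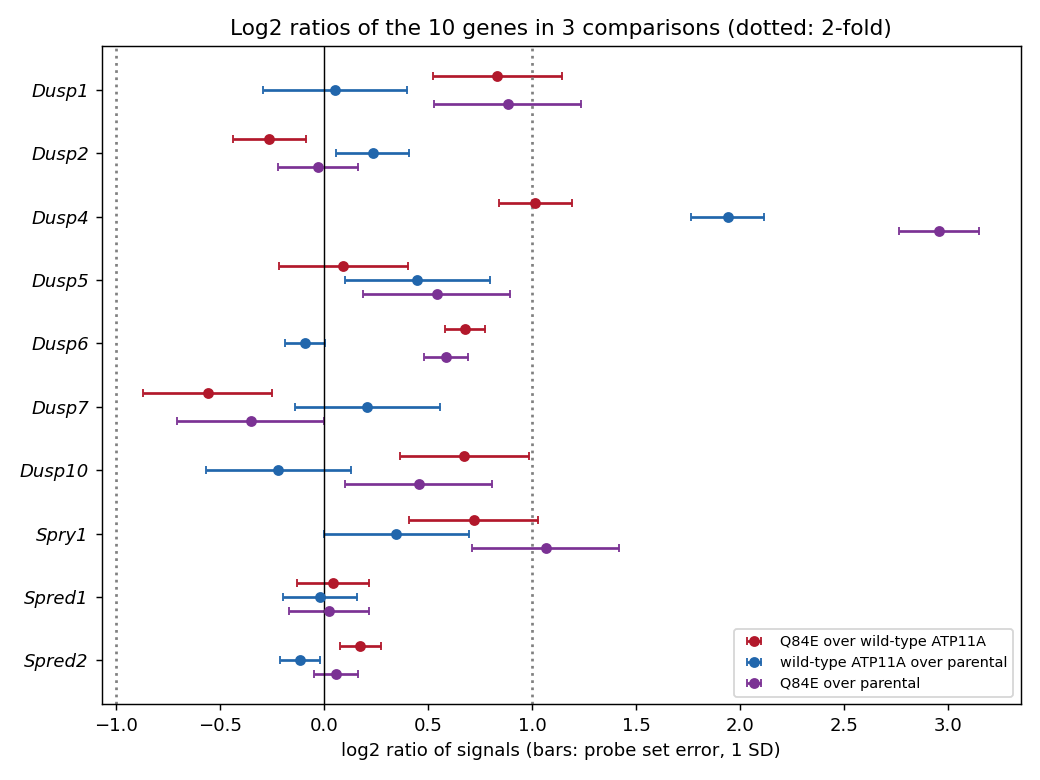
Log2 ratio of the brightest probe set (horizontal axis) of each of the 10 genes for Q84E over wild-type ATP11A, wild-type ATP11A over parental and Q84E over parental cells; bars are the probe set error of 1 SD and dotted lines mark 2-fold. Dusp4 lies at 1.02, 1.94 and 2.96, and Spry1 passes the limit only for Q84E over parental cells, at 1.07.

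Spry1 encodes Sprouty1, which restrains the activation of Ras and ERK and is induced in stimulated T cells. Its only probe set gave 232 in Q84E, 141 in wild-type ATP11A and 111 in parental cells. The order was that of Dusp4, with smaller steps. The log2 ratio was 0.72 for Q84E over wild-type ATP11A with an error of 0.31, 0.35 for wild-type ATP11A over parental with an error of 0.35 and 1.07 for Q84E over parental with an error of 0.35. Q84E cells thus had a 2.09-fold higher signal than parental cells. That ratio stood just above the 2-fold limit of 1 on the log2 scale, and quantile normalization, a common median and a pseudocount of 50 each brought it below the limit, to 0.94, 0.92 and 0.81.

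Spred1 and Spred2 encode relatives of Sprouty that bring the Ras inhibitor neurofibromin to the membrane. The brightest of the 8 probe sets of Spred1 gave 591 in Q84E, 573 in wild-type ATP11A and 581 in parental cells, and the next gave 543 in Q84E, 534 in wild-type ATP11A and 483 in parental cells. On the first the arrays differed by at most 0.044 on the log2 scale, against an error of 0.17. The dimmer probe sets of Spred1 went different ways. For Q84E over wild-type ATP11A, 4 of them had log2 ratios of 0.69, 0.55, -0.029 and -0.43, at signals between 57.4 and 139 on the 3 arrays, and the other 2 lay under the floor on all arrays. The brightest of the 5 probe sets of Spred2 gave 2599 in Q84E, 2304 in wild-type ATP11A and 2497 in parental cells. The log2 ratio of Q84E over wild-type ATP11A was 0.17, with an error of 0.097, and that over parental cells was 0.057. For Q84E over parental cells, 3 dimmer probe sets of Spred2 had log2 ratios of 0.27, 0.89 and -0.62, so these did not share a direction. The remaining probe set of Spred2 gave 55.4 in parental cells and was under the floor in both DKO lines.

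**Figure D3:**
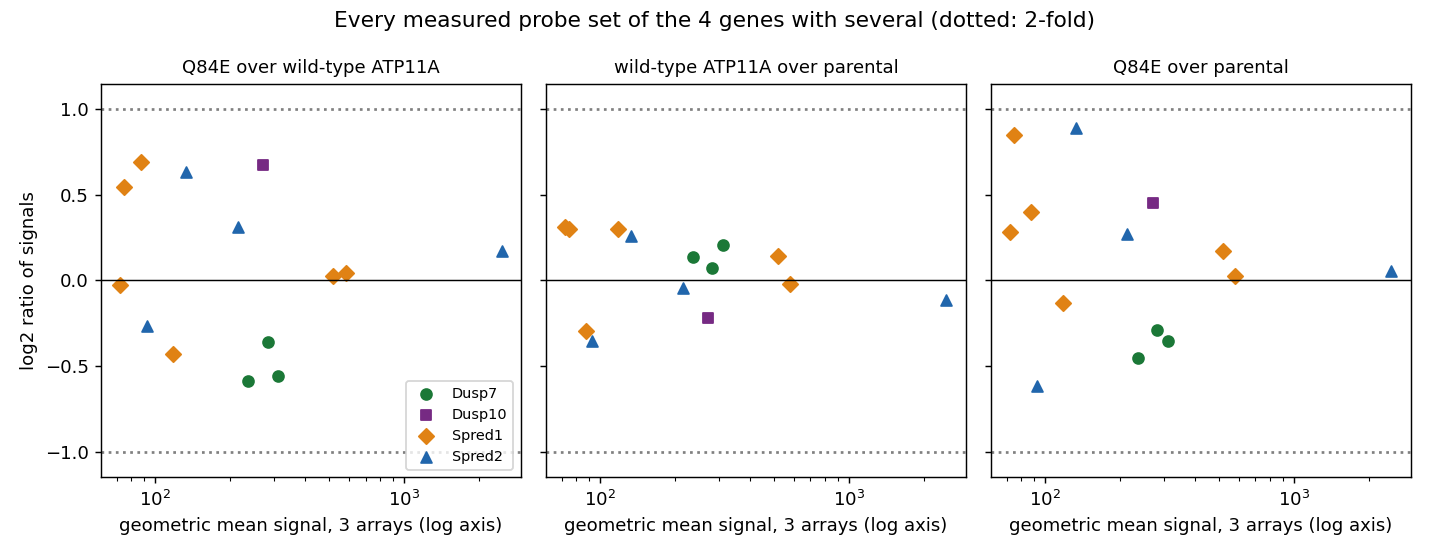
Log2 ratio (vertical axis) against geometric mean signal over the 3 arrays (horizontal log axis) for every probe set of Dusp7, Dusp10, Spred1 and Spred2 with both signals above the floor, in 3 comparisons; each point is 1 probe set and dotted lines mark 2-fold. The 3 Dusp7 points lie together below 0 for Q84E over wild-type ATP11A, at -0.56, -0.36 and -0.59, while the dim Spred1 points spread between -0.43 and 0.69.

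Counted by size, 1 of the 10 genes, Dusp4, was at least 2-fold higher in Q84E cells than with wild-type ATP11A and 0 were at least 2-fold lower, where 1.03% of all genes compared were higher and 0.319% lower. Over all genes this is 119 higher and 37 lower; the split was 68 and 64 with quantile normalization and 65 and 66 with a common median. For wild-type ATP11A over parental cells Dusp4 alone was at least 2-fold higher and none was lower, at 0.561% and 0.888% of all genes. For Q84E over parental cells Dusp4 and Spry1 were at least 2-fold higher and none was lower, at 1.63% and 0.793% of all genes. That split over all genes was 189 and 92, against 119 and 118 with quantile normalization and 111 and 123 with a common median. A limit of 2 probe set errors counted 5 genes as higher in Q84E than in wild-type ATP11A cells, Dusp1, Dusp4, Dusp6, Dusp10 and Spry1, and none as lower, where 9.49% of all genes were higher and 5.76% lower. With quantile normalization and the same errors 3 were higher, Dusp1, Dusp4 and Dusp6, and 1 lower, Dusp7 at -0.65. With a common median the same 3 were higher and 2 lower, Dusp7 at -0.70 and Dusp2 at -0.40. The shares of all genes past 2 errors were computed in the deposited scaling alone, so these rescaled counts have none beside them. By the same limit Dusp4 alone was higher in wild-type ATP11A than in parental cells, with 5.46% of all genes, and none was lower, with 5.36%. Dusp1, Dusp4, Dusp6 and Spry1 were higher in Q84E than in parental cells, with 10.1% of all genes, and none was lower, with 6.67%. The median log2 ratio of the 10 genes was 0.42 for Q84E over wild-type ATP11A, 0.13 for wild-type ATP11A over parental and 0.50 for Q84E over parental cells, beside 0.046, 0.0057 and 0.068 over all genes. The 10 genes were all measured above the floor, while all genes include those set to it, and 0.0057 is the ratio of the 2 floors. With a filter at the 75th percentile 6 of the 10 remained, with medians of 0.13, 0.11 and 0.30, beside 0.0096, 0.0072 and 0.021 over all genes. Of these, Dusp4 and Dusp5 lay under that percentile in parental cells, at 325 and 285 against 369. They passed only through the DKO lines, where they were higher, so the filter itself bears on the medians over parental cells. The comparisons share arrays, so their ratios are not separate evidence, and since the genes were chosen with these arrays known, nothing is read from their counts.

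The other genes of the pathway came from 5 lists. Of the 20 kinases of the cascades listed, 14 had a named probe set, and none of these was 2-fold apart on its brightest probe set in any comparison. Their log2 ratios of Q84E over wild-type ATP11A lay between -0.11 and 0.42, with 8 above and 6 below 0 and a median of 0.059, which was -0.078 with a common median, with 6 above and 8 below. Of all genes compared, counting those set to the floor, 58.1% were above 0 in that comparison in the deposited scaling. A gene under both floors takes their log2 ratio, 0.14 for Q84E over either other line, and so counts as above 0. The counts of the lists leave such genes out, so the shares of all genes are not of the same kind. The lowest and highest ratios of Q84E over wild-type ATP11A among the kinases were those of Map2k3 and Map2k6, which both activate p38. Map2k6 had 545 in Q84E, 407 in wild-type ATP11A and 567 in parental cells, so the wild-type ATP11A array was the low one. Its log2 ratios of 0.42 for Q84E over wild-type ATP11A and -0.48 for wild-type ATP11A over parental each exceeded 2 errors of 0.17 to 0.18 in the deposited scaling. A common median shifts the first by -0.14, which takes it under 2 errors. Map2k1, which encodes the ERK kinase MEK1, had 1827 in Q84E, 1520 in wild-type ATP11A and 1580 in parental cells.

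Among activators and adaptors of Ras, 2 of 12 genes compared were at least 2-fold higher in Q84E than in wild-type ATP11A cells and none was lower. Of all genes compared, 1.03% were higher and 0.319% lower by that limit. Rasgrp1, the main exchange factor for Ras below the T cell receptor, had 349 in Q84E, 172 in wild-type ATP11A and 228 in parental cells, so the log2 ratio over wild-type ATP11A cells was 1.02, and 2 of its 4 probe sets were at least 2-fold higher. With quantile normalization or a common median Rasgrp1 fell short of 2-fold, while Rasgrp4 stayed past it. Rasgrp4, a related factor known from mast cells, had 123 in Q84E cells and was under the floor in the other 2 lines, which makes it at least 2.43-fold higher than in wild-type ATP11A and at least 2.44-fold higher than in parental cells. It passed the filter through the Q84E array alone, so it could only be counted as higher there. Shc1, an adaptor between receptors and Grb2, was at 0.37, and Sos2 at -0.21 was the lowest. Rasgrp2, an exchange factor that acts mainly on Rap1, had 1586 in Q84E, 1650 in wild-type ATP11A and 2484 in parental cells, so both DKO lines lay below parental cells, at log2 ratios of -0.65 and -0.59.

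Of the GTPase-activating proteins, which switch Ras off, 7 of 8 had a named probe set, and 0 were 2-fold apart in any comparison. For Q84E over parental cells all 7 were above 0, between 0.077 and 0.56, but 6 were with quantile normalization and 4 with a common median. Of all genes compared, counting those set to the floor, 59.7% were above 0 in that comparison. Nf1, which encodes neurofibromin, the partner of the Spred proteins, was the highest, with 104 in Q84E, 112 in wild-type ATP11A and 70.2 in parental cells. For Q84E over wild-type ATP11A 4 were above and 3 below 0, with Rasal3 at 0.43 and Rasal1 at -0.33 as the ends. The share of all genes above 0, counting those set to the floor, was 58.1% there.

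Genes that ERK induces early had log2 ratios of Q84E over wild-type ATP11A on both sides of 0. Of 20 listed, 14 passed the filter and 13 could be measured, with 9 above and 4 below 0, a median log2 ratio of 0.092 and 0 past 2-fold. Of all genes compared, counting those set to the floor, 58.1% were above 0 in that comparison. With a common median 5 of the 13 were above and 8 below 0, and the median was -0.045. Etv4, an ETS factor, was highest at 0.64, with 170.0 in Q84E, 109 in wild-type ATP11A and 142 in parental cells, followed by Egr3 at 0.55 and Egr2 at 0.50. Egr3 had 126 in Q84E and 86.2 in wild-type ATP11A cells, and Egr2 had 77.6 and 54.7. Both lay low on the arrays, and each ratio was less than 2 errors of 0.31 away from 0. The lowest were Fosl2, a subunit of AP-1, at -0.41 and Ier5 at -0.26. Etv5, a relative of Etv4, differed little, with 6708, 6561 and 6428 in Q84E, wild-type ATP11A and parental cells. Egr1, Fosb, Fosl1, Ier2, Ier3 and Nr4a3 were under the floor on all arrays, and Jun was above it in parental cells alone. For Q84E over parental cells 10 of 11 measured genes were above 0, with a median of 0.22, and 8 of 11 with a median of 0.077 with a common median. In the deposited scaling 59.7% of all genes compared, counting those set to the floor, were above 0 in that comparison. Over parental cells Phlda1, a gene that growth factors induce, was 2.02-fold higher in Q84E cells, or under 2-fold with a common median, at 2309 in Q84E, 1941 in wild-type ATP11A and 1143 in parental cells. Nr4a1, an orphan nuclear receptor induced by the T cell receptor, had 1193, 1183 and 695 in the same order. Both of these were thus higher in the 2 DKO lines than in parental cells. Fosl2 lay under the floor in parental cells, and wild-type ATP11A cells exceeded it at least 2.16-fold.

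Of the other DUSP, Sprouty and Spred genes, 10 of 17 passed the filter, and none was 2-fold apart in any comparison. For Q84E over wild-type ATP11A 6 could be measured, 4 above and 2 below 0. Of all genes compared, 58.1% were above 0 there, counting those set to the floor. Dusp14, a phosphatase that acts in T cell receptor signalling, was highest at 0.69, with 188 in Q84E, 116 in wild-type ATP11A and 175 in parental cells, so the wild-type ATP11A array was the low one. Dusp28 was next at 0.31. Spry4, another Sprouty, was lowest at -0.23, with 189 in Q84E, 222 in wild-type ATP11A and 252 in parental cells, an order opposite to that of Spry1. Spry2, Spry3, Spred3, Dusp3, Dusp8, Dusp16 and Dusp18 did not pass the filter.

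**Figure D4:**
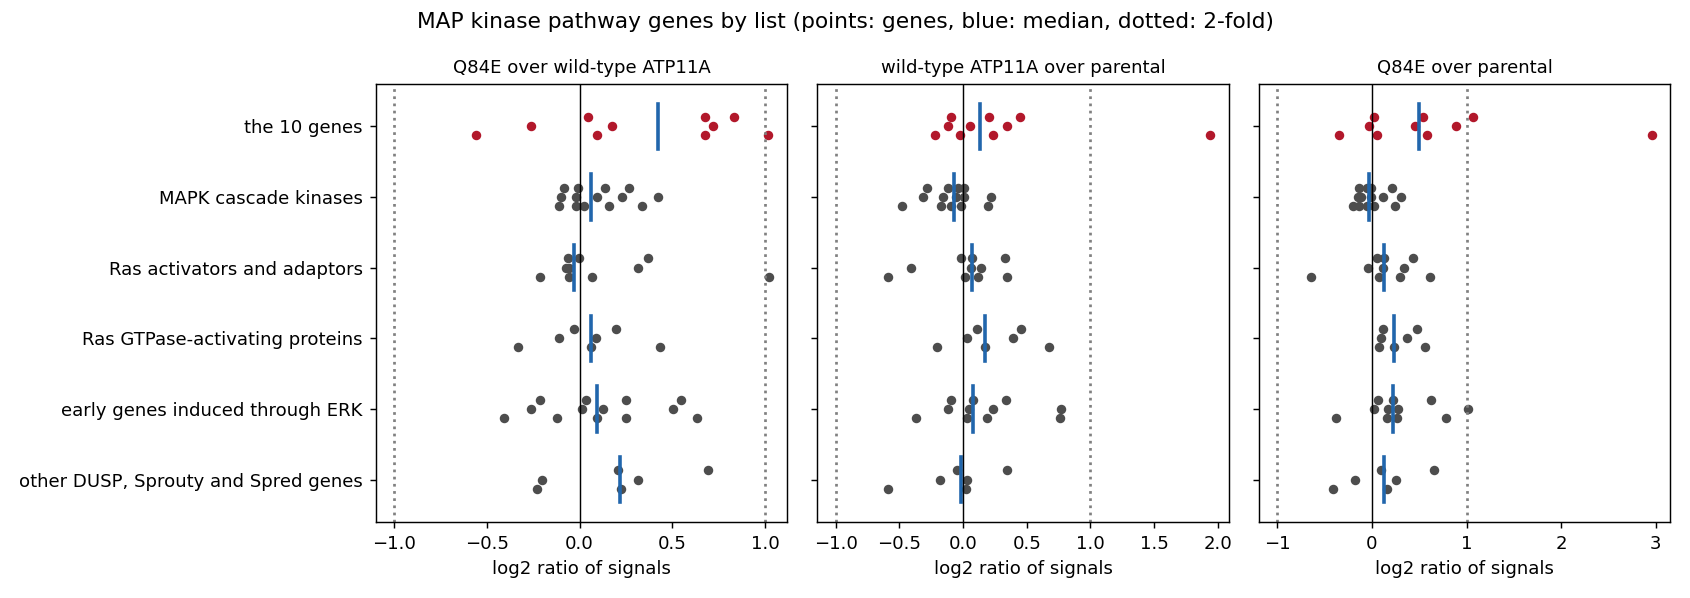
Log2 ratio (horizontal axis) of each gene measured above the floor on both arrays, for the 10 genes and 5 pathway lists (rows), in 3 comparisons; each point is 1 gene, blue lines are medians and dotted lines mark 2-fold. The cascade kinases stay between -0.48 and 0.42 in all 3 comparisons, while the 10 genes reach 1.02, 1.94 and 2.96 at Dusp4.

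The pattern of Dusp4 over the 3 arrays was set against that of 120 other genes that reached the 75th percentile and spanned at least 2-fold, as the distance between log2 levels centred on each gene's mean. The nearest were Fermt3 at a distance of 0.53, Acbd3 at 0.56, Hemgn at 0.65, Shisa5 at 0.83 and Avil at 0.86. Fermt3, which encodes an activator of integrins, had 4596 in Q84E, 3310 in wild-type ATP11A and 969 in parental cells. Acbd3, which encodes a Golgi protein, had 3803, 3003 and 789 in the same order. Hemgn, a gene of blood cell precursors, had 1050 in Q84E, 289 in wild-type ATP11A and 126 in parental cells. Fermt3 and Acbd3 made most of their step between parental and wild-type ATP11A cells, as Dusp4 did, whereas Hemgn and Avil had the larger step between wild-type ATP11A and Q84E cells. With 3 arrays such a likeness is only a description.

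Of the 6 T cell markers above the floor, 5 were lowest on the wild-type ATP11A array, all but Lat, which was highest there. On that array Dusp6, Dusp10, Spred1 and Spred2 also had their lowest signal. Their log2 ratios of wild-type ATP11A over parental cells were -0.092, -0.22, -0.020 and -0.12, each less than 2 errors away from 0. Spred1 was not lowest there with quantile normalization or a common median. Cd2 had 1584 in Q84E, 821 in wild-type ATP11A and 1518 in parental cells, and Cd3d had 6976, 4272 and 6898 in the same order. For Q84E over parental cells the log2 ratio was 0.061 for Cd2, 0.055 for Lat, 0.016 for Cd3d, -0.19 for Thy1, -0.31 for Cd247 and -0.33 for Cd3g. The part of these marker differences in the ratios of the 10 genes was not tested. Fewer cells of a kind and less RNA per cell cannot be told apart in such bulk samples.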

How the data were processed

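Total RNA of WR19L cells was labelled as biotinylated cRNA from 250 ng with a 3' in vitro transcription kit, per the labels' protocols. The authors deposited 1 linear intensity, or signal, for each probe set, made by MAS5 according to the submitters' processing notes, which give no version. All arrays had a trimmed mean of 500.0, leaving out 2% at each end, so the authors had scaled them, and that scaling was kept.

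Names came from the platform's annotation. Of 45101 probe sets 34958 had 1 gene symbol, 932 had several, 9211 were not listed and stayed unnamed, and 34754 matched RefSeq by Entrez identifier. Each gene was represented by its probe set with the highest mean log2 signal. Genes were compared if they reached the 50th percentile on at least 1 array, and weaker signals were set to that percentile of their array (the floor). All 10 genes passed. A ratio with 1 side under the floor is a bound. Genes were called by size, at least 2-fold. The error came from the 2 brightest probe sets of a gene, above the floor on all arrays and within 1 of each other on the log2 scale, in 619, 1024 and 751 genes for the 3 level classes; genes under the 50th percentile took the error of the lowest class. The limit of 2 errors was set after the values were seen. The genes, lists and limits were chosen with earlier results of these data known. The named genes were the 10, those 2-fold apart and the highest and lowest of each list, and the 5 nearest in pattern to the gene with the widest range; further ones, named with their levels, were chosen after their values were seen. Steps were tested on simulated data. Python 3.11.15, numpy 2.4.6 and pandas 2.3.3 were used.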

Additional observations from a re-analysis of the deposited data

How the results depend on the processing

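The ratios were recomputed under 9 other settings, and 245 of 255 recomputed ratios of the 10 genes moved by less than the probe set error. Every brightest probe set lay above the floor on all arrays, so changing the floor or the filter alone could not move a ratio. Nor could leaving out the less specific probe sets, which kept the brightest one of each remaining gene. These unmoved ratios are among the 245. The settings that could move a ratio were quantile normalization, a common median, a pseudocount of 50 and the mean of all probe sets. The sign turned in 10, in Dusp5, Dusp10, Spred1 and Spred2, and 0 of these had been past 2-fold. Dusp4 stayed between 0.88 and 1.02 on the log2 scale for Q84E over wild-type ATP11A, between 1.79 and 1.94 for wild-type ATP11A over parental and between 2.78 and 2.96 for Q84E over parental cells. For Q84E over wild-type ATP11A the number of genes at least 2-fold higher became 0 with a common median and with a pseudocount of 50, where Dusp4 lay just under the limit. For Q84E over parental cells it became 1, Dusp4 alone, with quantile normalization, a common median, a pseudocount of 50 and a filter at the 75th percentile, which Spry1 does not reach. A common median shifted the ratios of all genes by -0.14 for Q84E over wild-type ATP11A and Q84E over parental cells. Leaving out the less specific probe sets left no probe set of Dusp7. With all probe sets averaged, Dusp10 was at 1.30 for Q84E over parental cells, through a probe set under the floor on all arrays. Dusp1 and Spry1 lie low on the arrays, where the error is largest. No paired analysis was possible because each group has 1 array.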
